A study of Mus musculus with 6 samples.

Results

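The piRNAs described here are the middle-abundance class of mouse sperm: 194 of the 8190 piRNA identifiers measured (2.37%), those whose level averaged at least 200 and less than 1000 reads per 1000000 piRNA reads (RPM) over 6 samples. The class was chosen by its mean level alone, so that level describes the class and is not a result. Mature sperm had been taken from the cauda epididymis of 8-week-old C57BL/6 male mice. The 3 normal samples came from mice labelled normal, and the 3 stress samples from mice in which stress had induced a depressed state; nothing else distinguishes the groups in the labels, which do not describe the stress or say whether animals were pooled. It is not stated that the replicates are separate animals, so every p-value here measures the spread between these samples only, which may be technical. The design asks whether the small RNAs of sperm differ with the depressed state of the father.

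PIWI-interacting RNAs (piRNAs) are small RNAs of the germline, slightly longer than microRNAs (miRNAs), that are loaded into PIWI proteins and guide them to matching transcripts. They are cut from long single-stranded precursors, protected at the 3′ end by methylation, and best known for silencing transposons. In the mouse testis most of them appear at the pachytene stage of meiosis, bound by MILI and MIWI, and what remains in mature sperm is a residue of that supply. The deposited table names each piRNA by an identifier only; the target, precursor and sequence of a single member are not analysed here, and identifiers whose sequences overlap could share reads. No pair of members held the same reads in all 6 samples, and no pair had neighbouring identifier numbers.

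The libraries held 72652 to 100913 piRNA reads, so 1 read was worth 9.91 to 13.8 RPM. Normal replicate 3 stood apart in its proportions: it held 2.81 piRNA reads per 100 miRNA reads, against 5.01 to 9.65 in the other samples. All 10 germ-cell marker miRNAs, such as miR-34c and miR-741, were present in every library, at a summed 0.436% to 0.630% of the miRNA reads in normal and 0.435% to 0.536% in stress samples. Markers of other cells were present as well. The 6 epithelial miRNAs (the miR-200 family, miR-141, miR-429 and miR-205) summed to 1.19% to 1.70% in normal and 2.85% to 3.15% in stress samples. The 5 stromal, smooth muscle and endothelial markers summed to 0.252% to 0.466% and 0.857% to 1.01%, and the 6 leukocyte markers to 0.0349% to 0.0792% and 0.134% to 0.186%. Each of these 3 lists was higher in the stress samples without overlap; each summed level is a share of the miRNA reads, so it also moves with every other miRNA. The 3 red blood cell markers (0.00525% to 0.00942% and 0.00238% to 0.0150%) and the 3 neuronal markers (0.0748% to 0.146% and 0.132% to 0.149%) overlapped. Of the defining markers, miR-144-3p, miR-144-5p, miR-142a-5p, miR-223-3p, miR-155-5p and miR-124-3p were at 0 in at least 1 sample. The part of other cells in the results below was not tested, and in sperm samples measured in bulk, fewer cells of a type and less RNA per cell cannot be told apart.

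Most of the class lay near its lower bound. The mean level had a median of 294 RPM over the members, with quartiles at 238 and 430.1 RPM, and 100 members lay below 300 RPM against 38 at 500 RPM or more. The 58 most abundant members together held as much signal as the remaining members. Every member was backed by 94 to 501 reads over the 6 samples (median 143), and 193 of 194 were detected in every sample. In a single sample the median member had 16 to 33.5 reads, which puts the counting error alone at 17.3% to 25.0% of its level.

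The most abundant member, mmu_piR_009321, stood at 1114, 1942 and 719 RPM in normal replicates 1 to 3 and at 624, 655 and 936 RPM in stress replicates 1 to 3. Normal replicate 2 was by far its highest sample, and the groups overlapped. mmu_piR_024062 had the same shape, at 788, 2021 and 951 RPM in normal and 733, 799 and 647 RPM in stress samples. mmu_piR_012524 instead peaked in normal replicate 3 and stress replicate 2, at 815, 577 and 1381 RPM in normal and 694, 1480 and 991 RPM in stress samples. mmu_piR_026888 averaged 981 ± 228 RPM (SD, n = 3) in normal and 979 ± 218 RPM in stress samples, the closest pair of group means among the 6 most abundant members. mmu_piR_015400 averaged 1149 ± 358 and 819 ± 183 RPM, also with overlap. The bounds of the class cut through a continuous range of levels. Just inside lay mmu_piR_009865 at 200.6 RPM and mmu_piR_009321 at 998 RPM, and just outside lay mmu_piR_009943 at 199 RPM and mmu_piR_023970 at 1006 RPM.

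**Figure D1:**
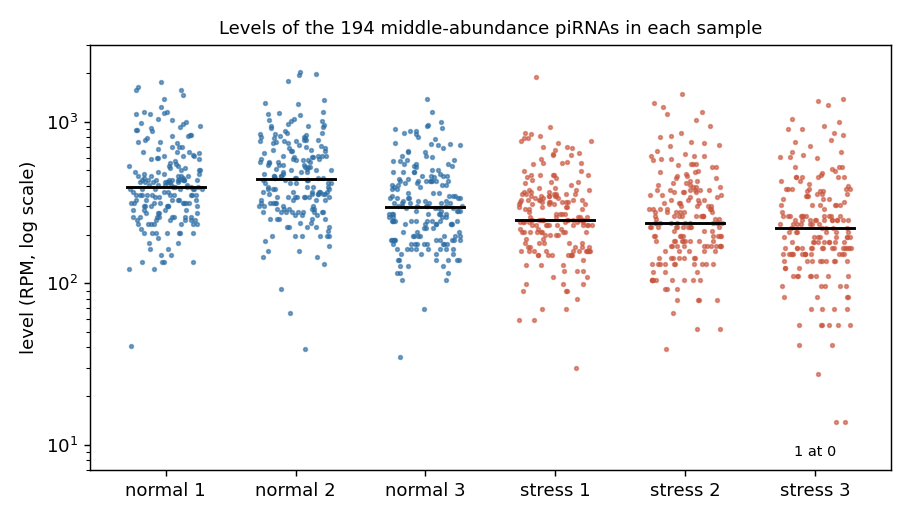
Levels of the 194 piRNAs in RPM (log scale) in each of the 6 samples; each point is 1 piRNA and the black line is the median of the members. The medians were 394, 440 and 296 RPM in normal replicates 1 to 3 and 248, 236 and 220 RPM in stress replicates 1 to 3, and 1 piRNA was at 0 in stress replicate 3.

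The class as a whole took a smaller part of the piRNA signal in every stress sample than in any normal sample. Its share was 9.30%, 10.2% and 6.91% in normal replicates 1 to 3 and 6.03%, 6.08% and 5.50% in stress replicates 1 to 3. Normal replicates 1 and 2 were high, while normal replicate 3 lay less than 1 percentage point above the highest stress sample. The group means were 8.80% ± 1.69 (SD, n = 3) and 5.87% ± 0.325, 1.50-fold apart (p = 0.1 in an exact two-sided permutation test of 3 against 3 samples, below which no p is possible here; adjusted p = 0.16 over 8 quantities tested in this way). The design can therefore not place this difference past a threshold of 0.05. Wilson intervals at the 95% level reached at most 0.217 percentage points from each share; they cover counting error only, since reads without molecular identifiers are not independent molecules.

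The piRNAs above the class held more of the signal in the stress samples. The 52 piRNAs at 1000 RPM or more held 74.9%, 71.4% and 80.5% of the signal in normal and 82.1%, 81.9% and 83.6% in stress samples. As RPM values of a sample sum to a fixed total, a larger share of one class is a smaller share of the others. The middle class moved in step with the 645 piRNAs at 50 to below 200 RPM. Its signal was 1.21, 1.13 and 1.21 times theirs in normal and 1.21, 1.19 and 1.21 times theirs in stress samples, with overlap (p = 0.8 by the same exact test, adjusted p = 0.80). Within the signal outside the 52 most abundant piRNAs, the middle class held 37.1%, 35.6% and 35.5% in normal and 33.6%, 33.6% and 33.6% in stress samples. These did not overlap either (means 36.1% ± 0.885 and 33.6% ± 0.0324, p = 0.1 by the same exact test), but the difference was 1.07-fold. Leaving out only mmu_piR_032974, the most abundant piRNA of the table, the middle class held 14.6%, 12.7% and 9.95% of the remaining signal in normal and 9.29%, 8.27% and 8.06% in stress samples.

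Set against the miRNA reads of the same libraries, the class did not separate the groups. The members had 6.32, 6.97 and 1.94 reads per 1000 miRNA reads in normal and 5.82, 3.05 and 3.95 in stress samples (p = 0.7 by the same exact test). Normal replicate 3, with its many miRNA reads, was the lowest of the 6 samples on this scale. The share describes the make-up of the piRNA pool, not an amount per sperm.

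**Figure D2:**
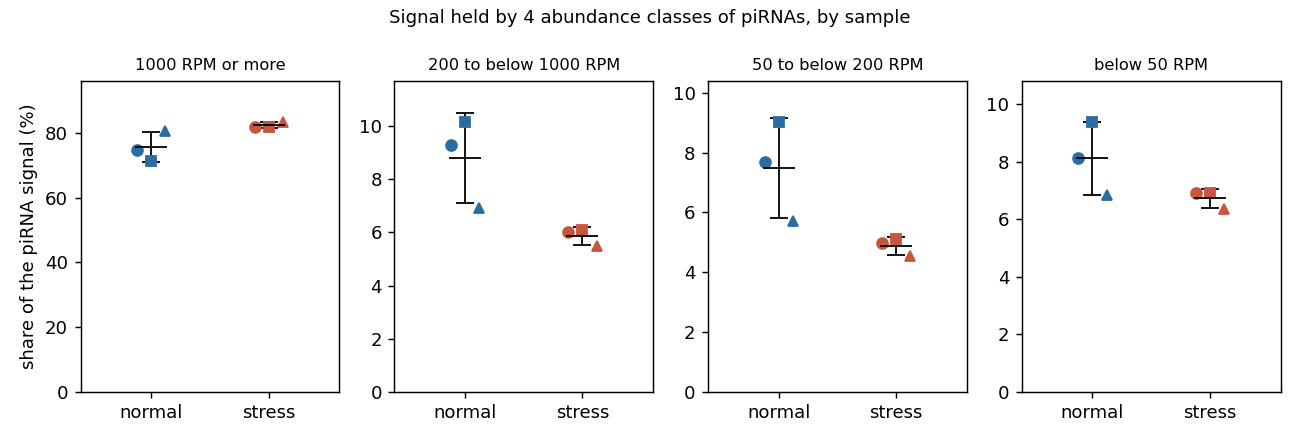
Share of the piRNA signal (%, axes from 0) held by 4 classes of mean level, by group; circles, squares and triangles are replicates 1, 2 and 3, and the bars give the mean ± SD. In the class of 200 to below 1000 RPM the normal samples lay at 6.91% to 10.2% and the stress samples at 5.50% to 6.08%, while the class of 1000 RPM or more was higher in the stress samples.

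The comparison of single piRNAs between stress and normal sperm gave no member past the threshold in the main test. All 194 members passed the filter on low values, limma called 0 of them at an adjusted p of 0.05, and over the whole table it called 0.0317% of 3152 tested piRNAs, which is 1 piRNA outside the class. The smallest adjusted p of a member was 0.19. At an unadjusted p below 0.05 limma marked 63 members (32.5%), 58 lower and 5 higher in stress, beside 10.8% of all piRNAs tested. The marked share was larger in the more abundant classes. It was 26 of 52 at 1000 RPM or more, 104 of 645 at 50 to below 200 RPM and 147 of the 2261 tested below 50 RPM. Reads per piRNA differ between these classes, so the 10.8% is not a like-for-like background for the members. In direction 162 members (83.5%) had a lower and 32 a higher mean of log2(RPM + 1) in stress. A lower mean was found for 58.0% of all piRNAs tested and for 453 of the 645 at 50 to below 200 RPM. The median log2 fold change, stress minus normal, was −0.65 over the members and −0.38 over all piRNAs tested. The leaning was not particular to the class, as the median was −0.64 over the 645 piRNAs at 50 to below 200 RPM. It was −0.30 at 1000 RPM or more and −0.14 over those tested below 50 RPM. Leaving aside the outer 10% at each end, the members lay between −1.48 and 0.25. This leaning was alike through the class: the median was −0.62 for the 100 members below 300 RPM, −0.76 for the 56 at 300 to below 500 RPM and −0.65 for the 38 above.

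In raw RPM the 3 stress values lay below all 3 normal values for 64 members (33.0%) and above them for 6 (3.09%). Over all piRNAs tested the same held for 11.3% and 5.04%. The share without overlap varied with abundance. In the class of 1000 RPM or more 20 of 52 were lower and 11 higher without overlap, and in the class of 50 to below 200 RPM 130 of 645 were lower and 19 higher. Reads per piRNA differ between these classes, so the shares are not a like-for-like comparison.

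Most of the leaning went with the scaling. TMM factors, which scale each library so that the bulk of its piRNAs match, were 1.30, 1.37 and 0.976 in normal and 0.829, 0.855 and 0.817 in stress samples. After dividing by them the median log2 fold change was −0.13 over the members and 0.08 over all piRNAs, with 115 members lower and 79 higher. It was −0.12 over the 645 piRNAs at 50 to below 200 RPM. Of all piRNAs tested, 48.4% were lower on this scale. There the stress values lay below all normal values for 32 members (16.5%, beside 6.09% of all piRNAs) and above them for 22 (11.3%, beside 8.34%). All 32 were among the 64 lower members in raw RPM, and all 6 higher members were among the 22. Every normal factor lay above every stress factor, so the division raised stress values relative to normal ones. Both inclusions therefore had to hold and are no result. In TMM-scaled RPM 8 of the 52 piRNAs at 1000 RPM or more were lower and 17 higher without overlap. In the class of 50 to below 200 RPM 54 of 645 were lower and 44 higher. Reads per piRNA differ between the classes, so neither these shares nor those over all piRNAs are a like-for-like background for the members. The median TMM-scaled level of the members was 304, 322 and 303 RPM in normal and 299, 276 and 269.7 RPM in stress samples. The groups still did not overlap on this scale, but the gap between them was narrow.

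**Figure D3:**
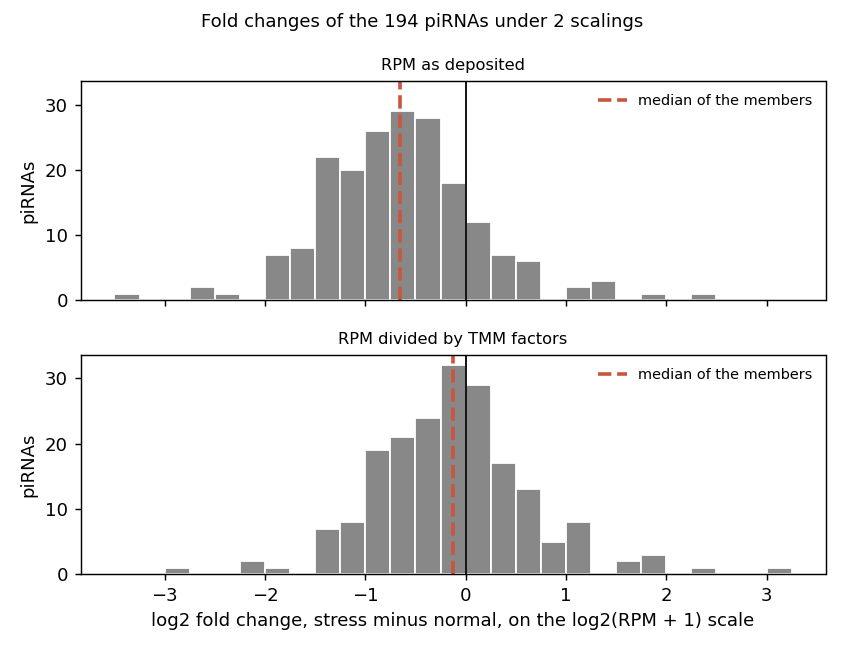
Number of the 194 piRNAs by log2 fold change (stress minus normal, log2(RPM + 1) scale) with RPM as deposited and after division by TMM factors; the dashed line is the median of the members and the solid line is 0. The median moved from −0.65 to −0.13.

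The count test on recovered reads called a few members, and its split of directions turned with the scaling. With TMM, edgeR called 8 members (4.12%), 6 higher and 2 lower in stress, beside 4.76% of the 378 piRNAs it tested (3.7% higher and 1.06% lower). That share is close to the share over all piRNAs tested and is no result about the class. Scaled instead to the piRNA total, edgeR called 24 members (12.4%), 3 higher and 21 lower. Over the 378 piRNAs it tested the share was 11.1% (1.59% higher and 9.52% lower). These shares are again close, so this is no result about the class. DESeq2 called 3 members higher and 1 lower (2.06% together), beside 0.444% of 3152 (0.381% higher and 0.0635% lower). Reads per piRNA differ between the members and those 3152, so this is not a like-for-like comparison. The number of edgeR calls with TMM varied with the libraries used: without normal replicate 1, stress replicate 1 or stress replicate 3 edgeR called 0 members, without normal replicate 2 it called 4, without stress replicate 2 it called 5 and without normal replicate 3 it called 12. Thus 0 of the 8 were called under each of the 6 omissions. Each omission left 5 samples and 426 to 511 tested piRNAs. The fold changes kept their direction throughout, at 1.08 to 3.80 for the 6 higher and −2.41 to −1.50 for the 2 lower members on the log2 scale. These 8 were picked by their calls in the same data, so this is a description only.

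Of the members that were lower in stress, mmu_piR_027735 had the smallest p-value in limma. It stood at 598, 499 and 336 RPM in normal replicates 1 to 3 and at 69.4, 118 and 55.1 RPM in stress replicates 1 to 3. Every normal value was more than 2 times the highest stress value. The log2 fold change was −2.58 ± 0.48 SE (limma adjusted p = 0.19), and with TMM in edgeR it was −1.92 ± 0.44 (adjusted p = 0.017). It rested on 44, 38 and 29 reads in normal and 7, 9 and 4 reads in stress samples. mmu_piR_024863 had similar levels, at 421, 459 and 360 RPM in normal and 119, 39.3 and 55.1 RPM in stress samples. Its groups were again far apart, with 12, 3 and 4 reads in the stress samples. limma gave −2.67 ± 0.52 (adjusted p = 0.19), and edgeR with TMM gave −1.85 ± 0.48 (adjusted p = 0.031). These were the 2 members called lower in edgeR with TMM. DESeq2 called mmu_piR_027735 (adjusted p = 0.026) but not mmu_piR_024863 (adjusted p = 0.061). In limma both passed with a pseudocount of 10 RPM (adjusted p = 0.0035 for each) or a filter at 50 RPM (adjusted p = 0.027 for each), mmu_piR_027735 also without stress replicate 2 (adjusted p = 0.011) and mmu_piR_024863 without stress replicate 1 (adjusted p = 0.031).

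The other 6 members of smallest p-value in this direction had no overlap between groups in raw or TMM-scaled RPM, but did not pass in limma (adjusted p = 0.20 for each) or in edgeR with TMM (adjusted p from 0.095 to 0.29). With a pseudocount of 10 RPM limma called 1 of the 6, mmu_piR_027008 (adjusted p = 0.049). The tightest was mmu_piR_011645, at 992, 919 and 731 RPM in normal and 347, 262 and 330 RPM in stress samples. Its group means, 880 ± 135 and 313 ± 45.0 RPM (SD, n = 3), differed 2.81-fold. mmu_piR_028913, the most abundant of them, stood at 1372, 1982 and 743 RPM in normal and 327, 615 and 468 RPM in stress samples. Here normal replicate 3 came close to stress replicate 2. mmu_piR_027008 averaged 688 ± 259 and 192 ± 54.9 RPM, with normal replicate 3 the lowest normal sample at 394 RPM. mmu_piR_006250 averaged 395 ± 150 and 110 ± 35.3 RPM, mmu_piR_023664 331 ± 39.4 and 111 ± 42.0 RPM, and mmu_piR_037040 489 ± 88.2 and 188 ± 42.1 RPM. In edgeR scaled to the piRNA total all 6 were past the threshold (adjusted p from 0.015 to 0.041).

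Of the members that were higher in stress, mmu_piR_004567 had the smallest p-value and, with 501 reads in all, the most reads of the class. It stood at 326, 617 and 719 RPM in normal replicates 1 to 3 and at 1893, 1113 and 1266 RPM in stress replicates 1 to 3. Its group means were 554 ± 204 and 1424 ± 413 RPM (SD, n = 3), without overlap. The log2 fold change was 1.40 ± 0.38 in limma (adjusted p = 0.20) and 1.93 ± 0.38 in edgeR with TMM (adjusted p = 0.0074). mmu_piR_015668 had the largest upward change, from 40.8, 197 and 487 RPM in normal to 555, 943 and 1335 RPM in stress samples. It spanned a wide range within normal sperm, from 3 reads in normal replicate 1 to 42 in normal replicate 3. Normal replicate 3 lay close under stress replicate 1. The log2 fold change was 2.48 ± 0.72 in limma (adjusted p = 0.20) and 2.46 ± 0.57 in edgeR with TMM (adjusted p = 0.017), and 3.80 there without normal replicate 3; DESeq2 did not call it (adjusted p = 0.27), while limma did with a pseudocount of 10 RPM (adjusted p = 0.0018) or no filter (adjusted p = 0.0064).

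mmu_piR_002142 went the same way, at 503, 236 and 661 RPM in normal and 922, 851 and 1390 RPM in stress samples (edgeR with TMM 1.72 ± 0.42, adjusted p = 0.023; limma adjusted p = 0.20). mmu_piR_022097 was rarer, at 149, 39.4 and 174 RPM in normal and 357, 262 and 523 RPM in stress samples (edgeR with TMM 2.21 ± 0.52, adjusted p = 0.017; limma adjusted p = 0.20). mmu_piR_031037 stood at 136, 65.6 and 162 RPM in normal and 198, 550.0 and 206 RPM in stress samples (edgeR with TMM 1.91 ± 0.52, adjusted p = 0.042; limma adjusted p = 0.39). Stress replicate 2 was far above the other stress samples, and without it the edgeR change of mmu_piR_031037 was 1.35 (adjusted p = 0.40). For these 3 the lowest normal sample was normal replicate 2, with 18 reads of mmu_piR_002142, 3 of mmu_piR_022097 and 5 of mmu_piR_031037. mmu_piR_020107 was the sixth called higher in edgeR with TMM (1.21 ± 0.32, adjusted p = 0.038). It overlapped in raw RPM, at 544, 853 and 429 RPM in normal and 793, 1152 and 743 RPM in stress samples. Its limma change was 0.59 ± 0.37 (adjusted p = 0.65). mmu_piR_028252 and mmu_piR_037714 overlapped in both scalings and passed in neither test on all 6 samples. The former stood at 998 RPM in normal replicate 3 against 299 and 223 RPM in normal replicates 1 and 2, and edgeR with TMM called it higher once that library was left out (2.56 on the log2 scale, adjusted p = 0.00029).

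**Figure D4:**
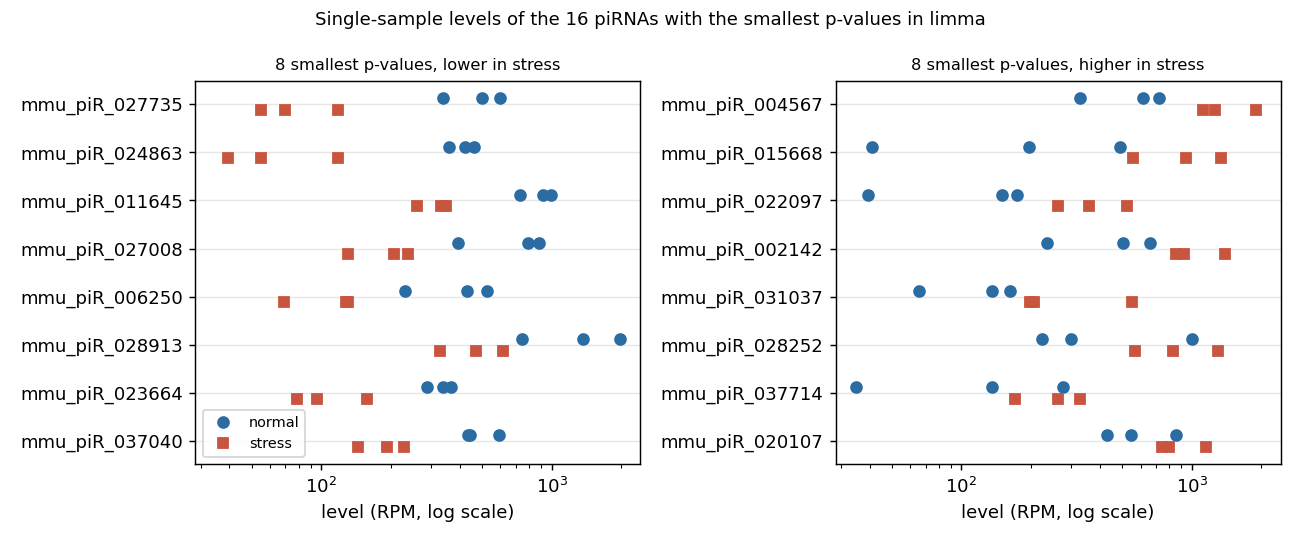
Levels in RPM (log scale) of the 8 members of smallest limma p-value in each direction, with 3 normal samples (circles) and 3 stress samples (squares) each. The groups are apart for all 8 lower members and for 5 of the 8 higher ones, where mmu_piR_028252, mmu_piR_037714 and mmu_piR_020107 overlap.

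Levels of most members, though not of all, varied within a group by more than counting alone gives. The index of dispersion is the variance of the reads relative to what counting alone gives (1 where counting explains all of it). It had a median of 3.77 in normal and 2.06 in stress samples. It was above 2 for 124 members in normal and 98 in stress samples, and at or under 1 for 33 and 50. The index depends on the number of reads, and the members together had 5958 to 7756 reads in the normal and 3993 to 6085 in the stress samples. It is also taken against the piRNA total of each library, so a shift shared by the class enters the index of each member. The share of the class was 6.91% in normal replicate 3, against 9.30% and 10.2% in normal replicates 1 and 2. The median coefficient of variation of a member was 33.3% in normal and 30.8% in stress samples. By level, the medians of the index in normal and stress samples were 2.69 and 1.76 for the 100 members below 300 RPM, 2.53 and 1.89 for the 56 at 300 to below 500 RPM, and 8.84 and 3.95 for the 38 at 500 RPM or more. Among the 193 members with reads in every sample, the highest sample was a median of 3.34 times the lowest, under 2 times for 21 and over 5 times for 49.

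The 5 members with the smallest spread were picked for it, so their small spread is a description only. mmu_piR_019835 stood at 299, 276 and 267 RPM in normal and 149, 157 and 165 RPM in stress samples, a pooled within-group SD of 0.080 on the log2 scale. mmu_piR_012537, at 965, 879 and 882 RPM in normal and 684, 746 and 592 RPM in stress samples, and mmu_piR_009600, mmu_piR_034537 and mmu_piR_012368 were the next steadiest. The stress samples of all 5 lay below the normal ones in raw RPM, and all 5 overlapped after TMM scaling. A small spread makes a gap between groups easier, so the gap in raw RPM is a description only as well.

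In 4 of the 5 most variable members the lowest value was that of stress replicate 3. mmu_piR_032209 had 16, 9 and 0 reads in the stress samples; its 0 of 72652 reads allows a level of up to 41.3 RPM (3 reads). Its normal levels were 516, 276 and 139 RPM, its limma change was −3.35 ± 1.51 (adjusted p = 0.44) and rested on that 0, while edgeR with TMM gave −1.04 ± 0.63 (adjusted p = 0.39). mmu_piR_023263 and mmu_piR_025228 each had 1 read in stress replicate 3, at 13.8 RPM, against 183 and 170.2 RPM in stress replicate 2. mmu_piR_010111 had 2 reads there and 26 in stress replicate 1. The fifth was mmu_piR_015668, described above, whose spread lay in the normal samples. Of all members, 60 had under 10 reads in at least 1 sample.

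The highest value of a member was most often found in 2 of the normal libraries. In raw RPM 94 members peaked in normal replicate 2 and 61 in normal replicate 1, together 79.9%, beside 52.1% of all piRNAs tested. Normal replicate 3 was the highest for 8 members, and each stress sample for 10 or 11. After TMM scaling the peaks were spread more evenly, over 36, 46 and 32 members in normal replicates 1 to 3 and 34, 24 and 22 in stress replicates 1 to 3. Normal replicates 1 and 2 together then held the peaks of 42.3% of the members, beside 32.1% of all piRNAs tested. Reads per piRNA differ between the members and all piRNAs tested, so neither pair of shares is a like-for-like comparison.

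Across the 194 members the samples resembled each other only moderately, and normal replicate 3 stood between the groups. Pearson's r of log2(RPM + 1) was 0.50 to 0.59 among normal samples and 0.51 to 0.65 among stress samples. Normal replicates 1 and 2 correlated with the stress samples at 0.20 to 0.39, whereas normal replicate 3 did so at 0.47 to 0.54, close to its 0.56 and 0.50 with normal replicates 1 and 2. The piRNAs at 1000 RPM or more gave 0.82 to 0.98 for the same pairs of samples. These are descriptions across piRNAs of shared libraries. The narrow range of levels that defines the middle class and its fewer reads per piRNA both differ from the more abundant class. The closest pair of samples, stress replicates 2 and 3, still differed by more than sampling noise over the members (chi-square divided by its degrees of freedom, 2.47).

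**Figure D5:**
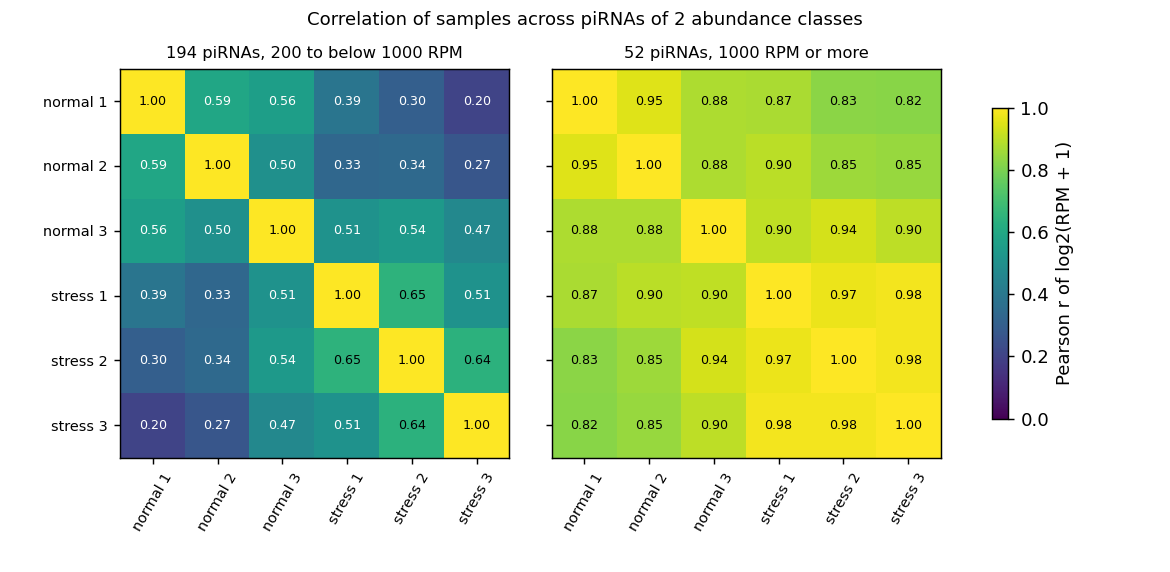
Pearson's r of log2(RPM + 1) between all pairs of samples, across the 194 piRNAs of 200 to below 1000 RPM and across the 52 of 1000 RPM or more, on a colour scale from 0 to 1. In the middle class normal replicates 1 and 2 are least like the stress samples (0.20 to 0.39) and normal replicate 3 lies between (0.47 to 0.54).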

How the data were processed

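Small RNA of sperm was sequenced in 6 samples, 3 per group; groups come from the disease state labels. TRIzol RNA went into Illumina TruSeq libraries, per the labels' protocols. Bowtie was used, per the submitters' processing notes; no version, build, piRNA annotation or rule of counting is stated in the labels or file headers. piRNA values are RPM: the authors scaled each sample to 1000000 over its piRNAs. Whole reads were recovered by dividing each column by its smallest value above 0; 100% of values came out whole within 0.001. The deposited miRNA table holds expected counts and served for marker shares and read totals.

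All piRNAs at or above 1 RPM in at least 3 samples (96.9% to 97.8% of the signal) were fitted in limma 3.58.1 (trend) on log2(RPM + 1), stress against normal, two-sided, with Benjamini-Hochberg adjustment over the 3152 tested. As 1 read was worth 9.91 to 13.8 RPM, the pseudocount lay below 1 read. A sample at 0 reads could therefore widen a fold change on that scale. That of mmu_piR_032209 was −3.35, and −2.23 with a pseudocount of 10 RPM. Alternatives were edgeR 4.0.16 (filterByExpr with a minimum count of 10, quasi-likelihood test) and DESeq2 1.42.0 on recovered reads, TMM-scaled RPM, other pseudocounts and filters, left-out samples and a replicate block. The SE in edgeR is the fold change over the square root of F. Scripts were tested on simulated data. Named piRNAs are those past the threshold in limma or edgeR with TMM, the 8 smallest limma p-values per direction, the 6 highest and 3 lowest means, the 5 largest and 5 smallest within-group SDs, members with 0 reads in a sample, and neighbours of the bounds. Members and lists were chosen with earlier results of these data known.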

Additional observations from a re-analysis of the deposited data

How the results depend on the processing

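The number of members called was 0 in limma, 6 with a pseudocount of 10 RPM, 1 without a filter, 2 with a filter at 50 RPM and 2 with the replicate number as a block, but 8 in edgeR with TMM, 24 in edgeR with the piRNA total (chosen after seeing the data) and 4 in DESeq2. Leaving out 1 sample gave 0 to 1 call in limma. In edgeR with TMM (omissions chosen after seeing the data) it gave 0, 4 and 12 calls without normal replicates 1 to 3 and 0, 5 and 0 without stress replicates 1 to 3. The members' median log2 fold change was −0.13 with TMM-scaled RPM, −0.060 in edgeR with TMM and −0.13 in DESeq2, against −0.65. Without 1 sample it was −0.87 to −0.53 in limma; in edgeR with TMM it was −0.070, −0.012 and −0.025 without normal replicates 1 to 3 and −0.045, 0.026 and 0.0045 without stress replicates 1 to 3, so it turned above 0 without stress replicate 2 or 3. The cause was not tested. Members without overlap numbered 80 to 116 without 1 sample (116 without normal replicate 3), where fewer samples make a gap easier, and 53 or 54 with other scalings, against 70. The difference in the share of the class kept its direction in all alternatives run (−2.24 to −3.87 percentage points without 1 sample). Same-numbered samples did not deviate together over all piRNAs tested (r = 0.0032, −0.0080 and 0.026), so the numbers were not taken as pairs; the 2 calls of the block were mmu_piR_015668 (adjusted p = 0.018) and mmu_piR_027735 (adjusted p = 0.037), not mmu_piR_024863 (adjusted p = 0.051), and it gave a smallest possible p of 0.25 for the share. The 8 members of smallest limma p-value in each direction and mmu_piR_032209 kept their direction in all alternatives run. The 8 per direction were picked for small p-values in these data. Where groups do not overlap in raw RPM, leaving out a sample cannot turn the direction in limma, so this is a description only. Members had the fewest reads in stress replicate 3 (median 16).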
